A study of Mus musculus with 64 samples.

Results

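Small RNA was sequenced from the gonadal fat of female mice, and 6 libraries from humanized females (HUMF) were compared with 5 from wild-type females (WTF), 11 of the 64 samples of the series. The members are the HUMF and WTF columns of the deposited adipose small RNA table, chosen by name and not by any measured value. HUMF mice expressed the human ortholog of AS3MT, the enzyme that methylates inorganic arsenic, and WTF mice expressed the mouse ortholog; in humanized mice of this kind the human AS3MT and BORCS7 region is known to replace the mouse one. The mice were of the 129S6/SvEvTac strain, and every group, WTF included, received inorganic arsenic (iAs) at 400 ppb in its drinking water for 4 weeks. No unexposed group entered these data, so each difference below is between genotypes under arsenic. Ages were not given, and neither was whether each library came from a separate animal, so the p-values measure the spread between libraries. The libraries were made with the TriLink CleanTag Small RNA kit in 2 sets told apart by the form of their names: 3 HUMF and 3 WTF libraries in set 1, and 3 HUMF and 2 WTF libraries in set 2. A further 9 male libraries (5 HUMM and 4 WTM) from the same table, and 3 HUMF and 3 WTF mRNA libraries of the same depot, were used for comparison.

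MicroRNAs (miRNAs) are short RNAs that guide Argonaute proteins to messenger RNAs, mainly through the seed, bases 2 to 8 from the 5′ end. The fat depot holds adipocytes, vessels, fibroblasts and immune cells, and each cell type carries its own set of abundant miRNAs. The 5p arms of the miR-34 and miR-449 miRNAs are known as one seed family. miR-34a is a well-known target of the tumour suppressor p53, and miR-34b, miR-34c and miR-449 are abundant in ciliated epithelium such as that of the oviduct. The Dlk1-Dio3 cluster is an imprinted group of miRNAs processed from long noncoding transcripts of the maternal chromosome.

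Some miRNAs described below, none of which passed the test, are shown first. They are RefSeq mature sequences (GRCm38.p6) written 5′ to 3′ with the seed in capitals. Of the 740 features with a reference start, 590 had such an entry. The first set is the miR-34 and miR-449 family, which held several of the lowest HUMF values. miR-34a lies on chromosome 4 (chr4:150068473-150068494, plus strand), miR-34b and miR-34c lie together on chromosome 9, and miR-449a lies on chromosome 13. The 5p arms share the seed GGCAGUG, and the 3p arms of miR-34b and miR-34c share AUCACUA.
miR-34a-5p: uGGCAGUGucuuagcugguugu
miR-34b-5p: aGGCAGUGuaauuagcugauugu
miR-449a-5p: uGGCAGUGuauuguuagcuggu
miR-34b-3p: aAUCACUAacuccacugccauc
miR-34c-3p: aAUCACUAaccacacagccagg

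A further pair with low HUMF values, miR-155 of activated immune cells and miR-182 of sensory and other epithelia, have unrelated seeds.
miR-155-5p: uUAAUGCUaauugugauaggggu
miR-182-5p: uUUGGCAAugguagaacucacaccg

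Members of the Dlk1-Dio3 cluster on chromosome 12 made up 5 of the 8 features with the smallest unadjusted p among those higher in HUMF, counting shifted forms. Among features with a reference start the cluster held 59 of the 548 tested, and its share of shifted forms was not counted. The 5 sequences shown are not all of those features. For miR-376b-5p and miR-411-5p the reference form is printed, while the leading forms had a shifted start and so another seed. miR-376c-3p had no reference entry, and miR-127-3p is shown as the most abundant member, not as a leading feature. The 5 shown do not share a seed.
miR-136-5p: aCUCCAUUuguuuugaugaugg
miR-299-5p: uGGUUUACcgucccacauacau
miR-376b-5p: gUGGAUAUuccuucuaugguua
miR-411-5p: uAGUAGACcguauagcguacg
miR-127-3p: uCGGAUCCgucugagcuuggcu

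The last set marks libraries that stood apart. miR-200c and miR-141 are epithelial miRNAs whose seeds differ by a single base, and miR-216a, miR-216b and miR-217 are the miRNAs of exocrine pancreas.
miR-200c-3p: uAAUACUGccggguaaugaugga
miR-141-3p: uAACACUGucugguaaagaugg
miR-216a-5p: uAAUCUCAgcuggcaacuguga
miR-216b-5p: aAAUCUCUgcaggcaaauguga
miR-217-5p: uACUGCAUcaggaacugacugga

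The table listed 2173 features, of which 1433 (65.9%) were forms with a shifted 5′ start, written here with the offset in bases at the end of the name, as in miR-34a-5p_-1. Values are the authors' normalized signal, in which each library's listed reads were divided by a size factor. Every nonzero value corresponded to 10 reads or more, so a feature with fewer reads is listed at 0. Listed reads ranged from 11631509 to 24606986 in HUMF and from 11088364 to 34352654 in WTF, with WTF replicate 10 the deepest. The first principal component of the 11 libraries (22.8% of the variance) separated the library sets, not the genotypes. The adipose mRNA libraries carried high signal of the adipocyte genes Adipoq, Plin1, Cidec and Fabp4, and the replaced gene matched the labels. As3mt had 5.34, 0.889 and 0 in the 3 HUMF libraries and 1737, 1248 and 1307 in the 3 WTF libraries. Its neighbour Borcs7 had 14.9, 18.6 and 13.6 against 1359, 1075 and 1069.

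A pair of small RNA libraries stood apart from the other 10 female libraries. WTF replicate 10 had 16 features with a signal of at least 100 and more than 10 times the highest value of the other 10. These were miR-34b, miR-34c, miR-92b, miR-135a, miR-141 and miR-200c forms, led by miR-34c-5p at 109625 against at most 2910.2 elsewhere and miR-200c-3p at 51866 against at most 3510.1. HUMF replicate 9 had 4 such features, all forms of miR-216a, miR-216b and miR-217. miR-217-5p was at 9449.5 there and at most 631 in the other libraries. None of the remaining 9 libraries had such a feature. Values without these libraries are given below where they differ most.

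No small RNA passed the test between HUMF and WTF. limma, a linear model across all 1298 features with a mean signal of at least 10, on log2(signal + 1) with the library set as a covariate, called 0 (0%) at an adjusted p under 0.05. The smallest adjusted p (Benjamini-Hochberg) was 0.998, and the smallest unadjusted p was 0.00673. An unadjusted p under 0.05 was reached by 32 features (2.47%), 14 higher (1.08%) and 18 lower (1.39%) in HUMF. By chance, 65 features would be expected at that threshold, so the 32 were no excess. limma's voom fit on the listed reads also called 0 and gave 39 features at an unadjusted p under 0.05. The groups overlapped for every feature: none had all 6 HUMF libraries above or all below the 5 WTF libraries. The median difference was -0.00 (log2), and 646 features (49.8%) were higher in HUMF.

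The spread between libraries set what could be seen. For the 212 features with a reference start and a mean signal of at least 1000, the median half-width of the 95% confidence interval was 0.40 on the log2 scale. The interval lay within 1 log2 unit on either side of 0 for 184 of them, and their differences ran from -1.34 (miR-34c-5p) to 0.93 (miR-217-5p). These intervals are not adjusted for the number of features tested. Differences well above the median half-width were also not called, such as that of miR-34a-5p (-0.85, adjusted p = 0.998 by limma). The intervals therefore do not give the smallest difference that could be called with 6 and 5 libraries. In bulk tissue, fewer cells of a type and less RNA per cell cannot be told apart in any of the values that follow.

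**Figure D1:**
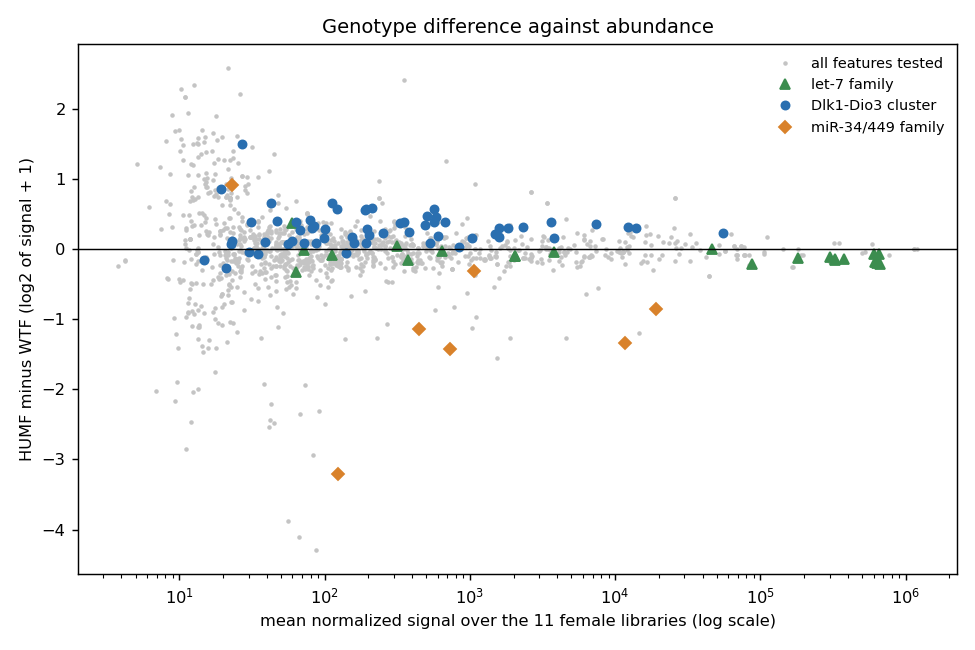
HUMF minus WTF difference (log2 of signal + 1) of each of the 1298 features tested against its mean signal over the 11 female libraries (log scale), with the let-7, Dlk1-Dio3 and miR-34 and miR-449 features that were tested marked. Most Dlk1-Dio3 points sit just above 0 and most miR-34 and miR-449 points below it, and the spread of all points widens under a signal of about 100.

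Of the 7 miR-34 and miR-449 features tested, 6 were lower and 1 higher in HUMF, the median difference was -1.13, and none was called; over all features with a reference start, 273 of 548 (49.8%) were lower. miR-34a-5p had 6272, 13955 and 21379 as its lowest, median and highest HUMF signal. The 5 WTF libraries, in the order of replicates 6, 7, 8, 10 and 11, had 13788, 33918, 38027, 32331 and 11324. Thus 3 WTF libraries lay above every HUMF library and the other 2 lay within the HUMF range. The difference was -0.85 (SE 0.32, 95% interval -1.53 to -0.17, unadjusted p = 0.0169 and adjusted p = 0.998 by limma), and -0.63 without WTF replicate 10. Its form with a start shifted by 1 base, miR-34a-5p_-1, differed by -0.92.

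The other members of the family followed WTF replicate 10. miR-34c-5p ranged from 988 to 2910.2 in HUMF and had 1744, 1899, 2110.1, 109625 and 2031 in WTF, a difference of -1.34 (95% interval -3.01 to 0.32), and of -0.17 without WTF replicate 10. miR-34b-5p was at 70.4 to 168 in HUMF and at 109.5, 105, 140.4, 3654 and 162 in WTF. miR-449a-5p was at 472 to 1344 in HUMF and at 847, 379, 603, 4796 and 587 in WTF. In each of these the 4 remaining WTF libraries lay within the HUMF range, except that miR-449a-5p in WTF replicate 7 lay below it. The 3p strand miR-34c-3p differed by -3.20 (unadjusted p = 0.00731 by limma), with most libraries near the listing limit. It was listed at 0 in 2 HUMF libraries and at most 47.4 in the others, against 43.1, 39.1, 48.7, 1031 and 54.9 in WTF, and the difference was -2.51 without WTF replicate 10. Without that library the median of the list was -0.17, with 2 of its features higher.

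**Figure D2:**
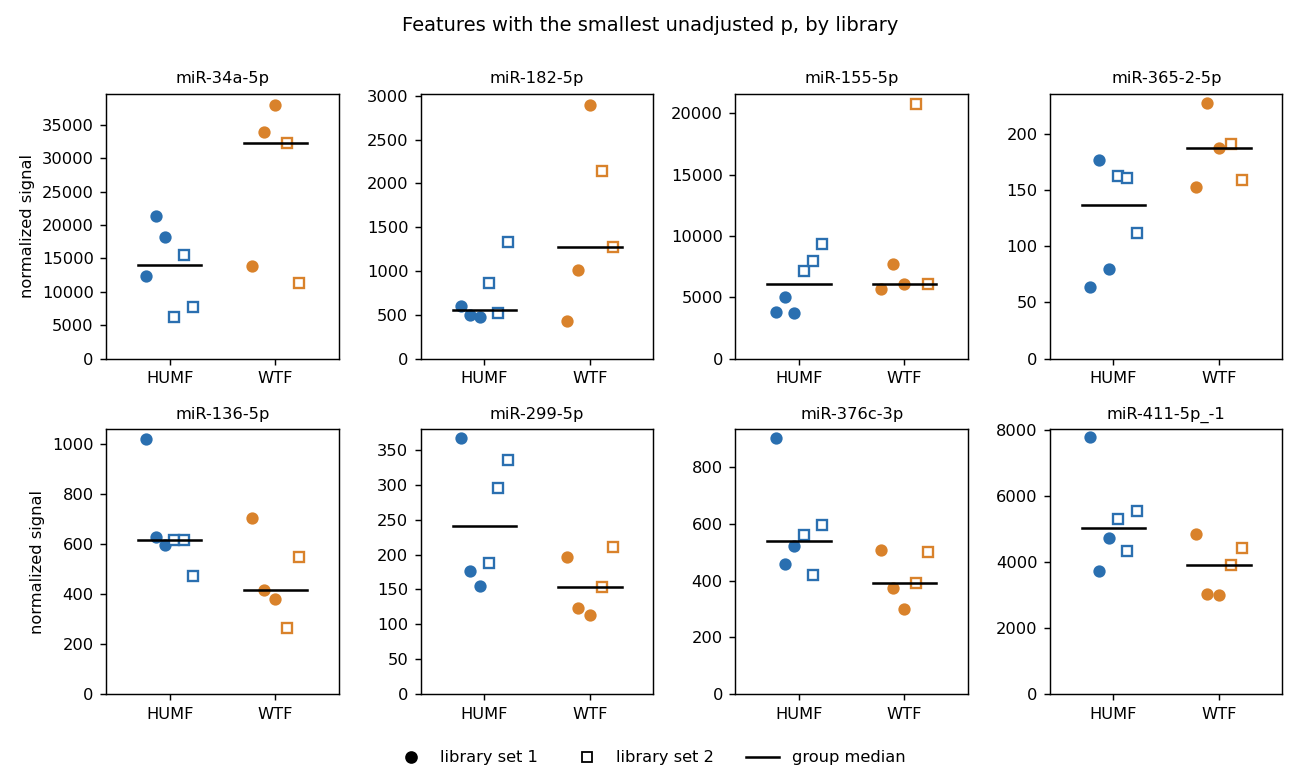
Normalized signal of 8 features with small unadjusted p in each HUMF (blue) and WTF (orange) library, with filled circles for library set 1, open squares for set 2 and a bar at the group median; each axis starts at 0. miR-34a-5p, miR-182-5p, miR-155-5p and miR-365-2-5p (top) have higher WTF medians, the 4 Dlk1-Dio3 features (bottom) have higher HUMF medians, and the groups overlap in every panel.

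Among the other low HUMF values, miR-155-5p, an miRNA of activated lymphocytes and macrophages, had 3747, 6063 and 9327 as its lowest, median and highest HUMF signal. WTF libraries had 5657, 7705, 6077, 20712 and 6083, so that WTF replicate 10 stood alone and the other 4 lay inside the HUMF range. The difference was -0.55 (SE 0.21, unadjusted p = 0.0171 by limma) with that library and -0.30 (unadjusted p = 0.0943) without it. Library set 1 does not hold WTF replicate 10, and its HUMF libraries (3826, 4975 and 3747) all lay below its WTF libraries (5657, 7705 and 6077). The difference in set 1 was -0.63 (unadjusted p = 0.00325, adjusted p = 0.987 by limma). In set 2, where the WTF libraries lay on both sides of HUMF, it was -0.47 (unadjusted p = 0.327 by limma). The white blood cell list as a whole had 4 of 21 features higher and 17 lower, with a median of -0.05. Without WTF replicate 10 it had 8 higher, and without HUMF replicate 6, HUMF replicate 9 or WTF replicate 8 it had 9. Its abundant member miR-181a-1-5p, which tunes lymphocyte receptor signalling, differed by -0.03 (95% interval -0.27 to 0.20).

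miR-182-5p, of the epithelial miR-183 cluster, ran from 479 to 1329 in HUMF, with a median of 559.9. It had 424, 1008, 2898, 2143 and 1273 in WTF. WTF replicate 6 lay below all HUMF libraries, and replicates 8 and 10 lay above them. The difference was -0.97 (SE 0.37, unadjusted p = 0.0167 by limma), and -0.65 without WTF replicate 8. miR-365-2-5p, from chromosome 11, was at 63.4 to 177 in HUMF and at 153, 228, 188, 191 and 159.7 in WTF (difference -0.66). miR-30b-3p_+1 (-0.66) and miR-1247-5p (-2.84), also among the 8 lower features with the smallest p, had low signal: miR-1247-5p was listed at 0 in 4 HUMF libraries and at no more than 25.8 in any WTF library.

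Most Dlk1-Dio3 miRNAs of the list had a slightly higher HUMF value, and no member passed the test. Of 76 features with a reference start, 59 were tested, and 54 were higher and 5 lower in HUMF, beside 275 of 548 (50.2%) higher over all such features. The median difference was 0.28 and the range -0.26 to 1.498. miR-1247-5p, which is not in the list, also lies in this region, beside Dio3 (chr12:110278094-110278115, minus strand), and its difference of -2.84 went the other way. An unadjusted p under 0.05 was reached by 5 of the 59, all higher. Over all 1298 features, 14 (1.08%) were higher and 18 (1.39%) lower at that threshold, these 5 included. These miRNAs are cut from shared transcripts, so they are not independent of each other, and the list was described with results of these data known. The summed signal of the cluster was 100958, 116830 and 166951 (lowest, median and highest) in HUMF and 135120, 93902.7, 75635.4, 98628.7 and 118258 in WTF. HUMF replicate 6 was the highest of all, and WTF replicates 7, 8 and 10 lay below every HUMF library. WTF replicate 6 lay above 4 of the HUMF libraries, so the groups overlapped.

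Of the 8 features with the smallest p among those higher in HUMF, 5 belonged to this cluster, counting shifted forms. Among features with a reference start the cluster held 59 of the 548 tested, and its share of shifted forms was not counted. The 8 were picked by p from these data, so the count is a description only. miR-136-5p had 472, 615 and 1019 as its lowest, median and highest HUMF signal and 704, 414, 381, 263 and 547 in WTF (difference 0.57, SE 0.23, unadjusted p = 0.0265 by limma). miR-299-5p had 155.3, 242 and 367 in HUMF and 197, 124.01, 114, 153 and 210.4 in WTF, a difference of 0.58. miR-376c-3p had 420.3, 541 and 904 against 507, 374.7, 299, 390.0 and 499.9, a difference of 0.47. In all 3, WTF replicates 7, 8 and 10 lay below every HUMF library, and WTF replicates 6 and 11 lay within the HUMF range, so the groups overlapped. Without HUMF replicate 6 the differences of miR-136-5p, miR-299-5p and miR-376c-3p were 0.44, 0.40 and 0.32, none with an unadjusted p under 0.05. The shifted forms miR-376b-5p_-1 and miR-411-5p_-1 differed by 0.68 and 0.43. The abundant members were smaller: miR-127-3p, which lies antisense to the paternally expressed Rtl1, differed by 0.22 (95% interval -0.10 to 0.54), and miR-541-5p by 0.30 (-0.09 to 0.69).

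**Figure D3:**
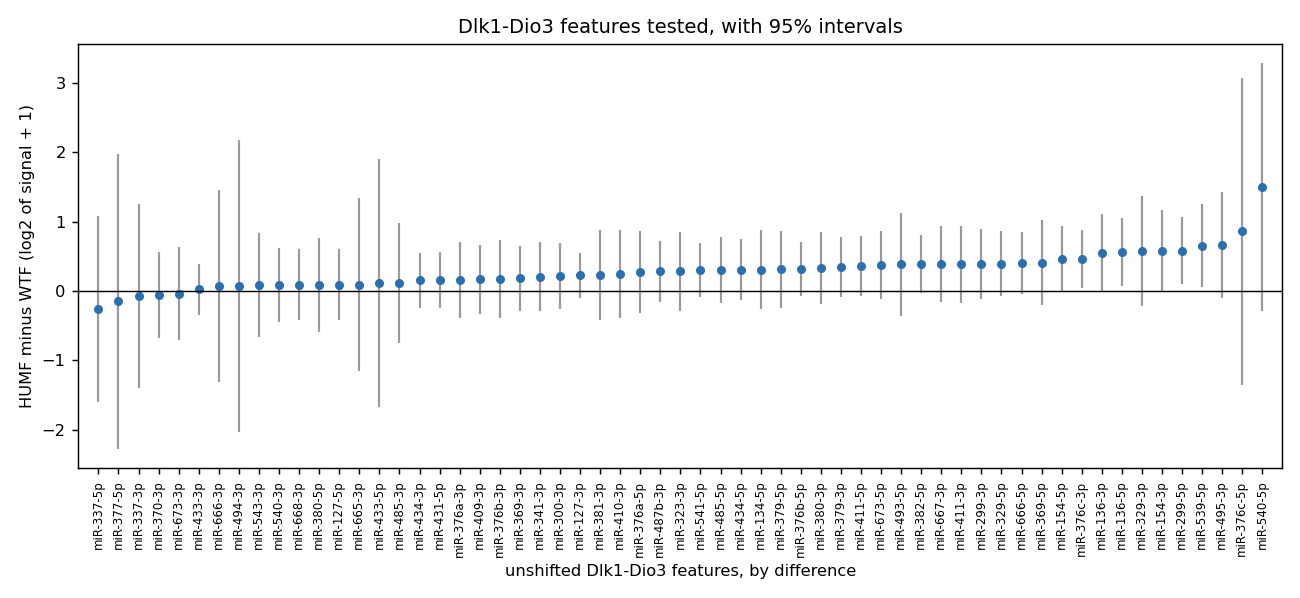
HUMF minus WTF difference (log2 of signal + 1) with its 95% interval for each of the 59 Dlk1-Dio3 features tested, ordered by difference. Of these, 54 points lie above 0 and the interval excludes 0 for 5.

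The direction of the cluster rested on several libraries. Its median was 0.14 without HUMF replicate 6 and 0.21 without WTF replicate 10, and it stayed between 0.14 and 0.36 when each female library was left out in turn. Within library set 1 it was 0.42, with 55 features higher, and within set 2 it was 0.12, with 42 higher; 39 features (of 59) were higher in both, as were 310 of all 1298 (23.9%). In males, which share no library with this comparison, HUMM minus WTM had a median of 0.45 over the same features, with 53 higher and 6 lower, beside 708 of 1298 (54.5%) over all features. In the mRNA libraries the noncoding Meg3 had 8461, 9322 and 6726 in HUMF and 3199, 6445 and 5052 in WTF. Its difference was 0.78 (unadjusted p = 0.0113, adjusted p = 0.933 by limma). Meg3 was paired as a host with miR-770 only, not with the leading miRNAs named above. Rian, the next transcript of the locus, had 2617, 3721 and 2696 against 1076, 2867 and 1557 (0.82, adjusted p = 0.933). Mirg differed by 0.19 and the paternally expressed Dlk1 by 0.35. Rian, Mirg and Dlk1 were added after values were seen.

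The remaining features among the 8 with the smallest p and a higher HUMF value were near the listing limit. miR-3060-3p had 9.64 to 32.6 in HUMF and 16.6, 0, 0, 20.8 and 0 in WTF (difference 2.34, unadjusted p = 0.00673). miR-221-3p_+4 and miR-145-5p_+3 were each listed in all 6 HUMF libraries, at no more than 17.0 and 40.7, and at 0 in the 3 WTF libraries of set 1. Their differences were 2.28 and 2.58 in the whole comparison, 3.89 and 4.66 in set 1, and 0.24 and -0.00 in set 2. The 3 WTF libraries of set 1 were also shallow, with 11088364 to 14614221 listed reads, so that their lowest listed signals were 11.1 to 13.9. HUMF replicate 7 of the same set was also shallow (11631509 listed reads, lowest listed signal 12.1). It listed miR-221-3p_+4 at 13.3 and miR-145-5p_+3 at 17.0. Whether depth set the zeros of the WTF libraries was not tested.

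The most abundant miRNAs of the depot differed little between genotypes. miR-10b-5p, from a Hox cluster, had 750328, 1156040 and 1967730 as its lowest, median and highest HUMF signal and 1219150, 1026720, 897333, 1432000 and 1218210 in WTF. Its difference was 0.00 (95% interval -0.40 to 0.40). miR-26a-2-5p, whose reads are shared with miR-26a-1-5p of identical sequence, differed by 0.00 (-0.26 to 0.26), and miR-30a-5p, which promotes adipocyte differentiation, by -0.09 (-0.44 to 0.27). The adipocyte list had 30 of 58 features higher and 28 lower, with a median of 0.00, which ran from -0.05 to 0.04 when each library was left out. Its miR-143-3p differed by 0.09 and its miR-378-3p, from the first intron of Ppargc1b, by 0.08. miR-21-5p, the leading member of the fibroblast and matrix list, ranged from 417603 to 793293 in HUMF and from 387810 to 797616 in WTF (0.08, -0.47 to 0.62). That list had 17 of 25 features higher and a median of 0.08, but 12 higher and -0.00 without HUMF replicate 6.

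The let-7 family, which restrains growth and insulin signalling genes, was lower in small steps. Of 22 features tested, 3 were higher and 19 lower in HUMF, with a median of -0.11 and no call. let-7c-2-5p had 434554, 641092 and 787325 in HUMF and 610265, 626980, 620400, 961167 and 711351 in WTF, a difference of -0.21 (-0.49 to 0.08). let-7b-5p differed by -0.18 and let-7f-2-5p by -0.07, again with overlapping groups. Since its members are nearly identical in sequence, reads can be split between them, and they are not independent. The family's median stayed between -0.13 and -0.08 when each library was left out in turn, and in males it was -0.28, with 6 of 22 higher.

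Other clusters and lists had medians between -0.10 and 0.14. The miR-15/16 family, with inhibitors of cell cycle genes, had 2 of 13 higher (median -0.09; miR-16-1-5p -0.08, interval -0.35 to 0.19). The growth-promoting miR-17-92 group had 9 of 22 higher (median -0.10; miR-25-3p -0.08 and miR-93-5p -0.12). Hox cluster miRNAs had 9 of 10 higher (0.09), and the rodent cluster in an intron of Sfmbt2 had 32 of 36 higher (0.11). Many Sfmbt2 copies have the same mature sequence and equal values, and their median was -0.08 in library set 2, -0.02 without HUMF replicate 12 and 0.24 without WTF replicate 10. The X-linked miR-322 to miR-450 cluster had 3 of 13 higher (-0.05), and the miRNAs in introns of Clcn5 had 3 of 8 higher (-0.04). The Clcn5 median was -0.21, with 1 higher, without WTF replicate 10, and 0.20 in library set 2; the miR-322 median ran from -0.19 without HUMF replicate 7 to 0.01 without WTF replicate 7. Smooth muscle miR-143 and miR-145 features had 4 of 4 higher (0.14; miR-145-5p 0.21) and endothelial miR-126 features 1 of 2 (-0.01). The smooth muscle median was -0.00 without HUMF replicate 11. A list of miRNAs often studied under arsenic or oxidative stress had 7 of 17 higher and a median of -0.03, or 10 higher and 0.06 without WTF replicate 10. Its lowest members were miR-34a-5p and miR-155-5p. None of these features was called.

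Some markers of tissues that adjoin or enter the depot were far higher in 1 library than in the rest. The epithelial list (miR-200, miR-141, miR-203, miR-205 and the miR-183 cluster) had 4 of 13 features higher and a median of -0.19. Its summed signal was 20980.3 to 52905.7 in HUMF and 28374.8 to 48053.5 in 4 WTF libraries, but 151786 in WTF replicate 10. Without that library 11 of 13 were higher and the median was 0.66, and without WTF replicate 11 it was -0.79. The ovary and testis list followed the same library through miR-204-5p (7589.6 there, 622 to 2334 in the other 10). Its defining germ cell members of the miR-465 and miR-743 clusters were listed at 0 in all 11 libraries. The 3 pancreas features tested had a median of 0.93, and -0.00 without HUMF replicate 9.

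**Figure D4:**
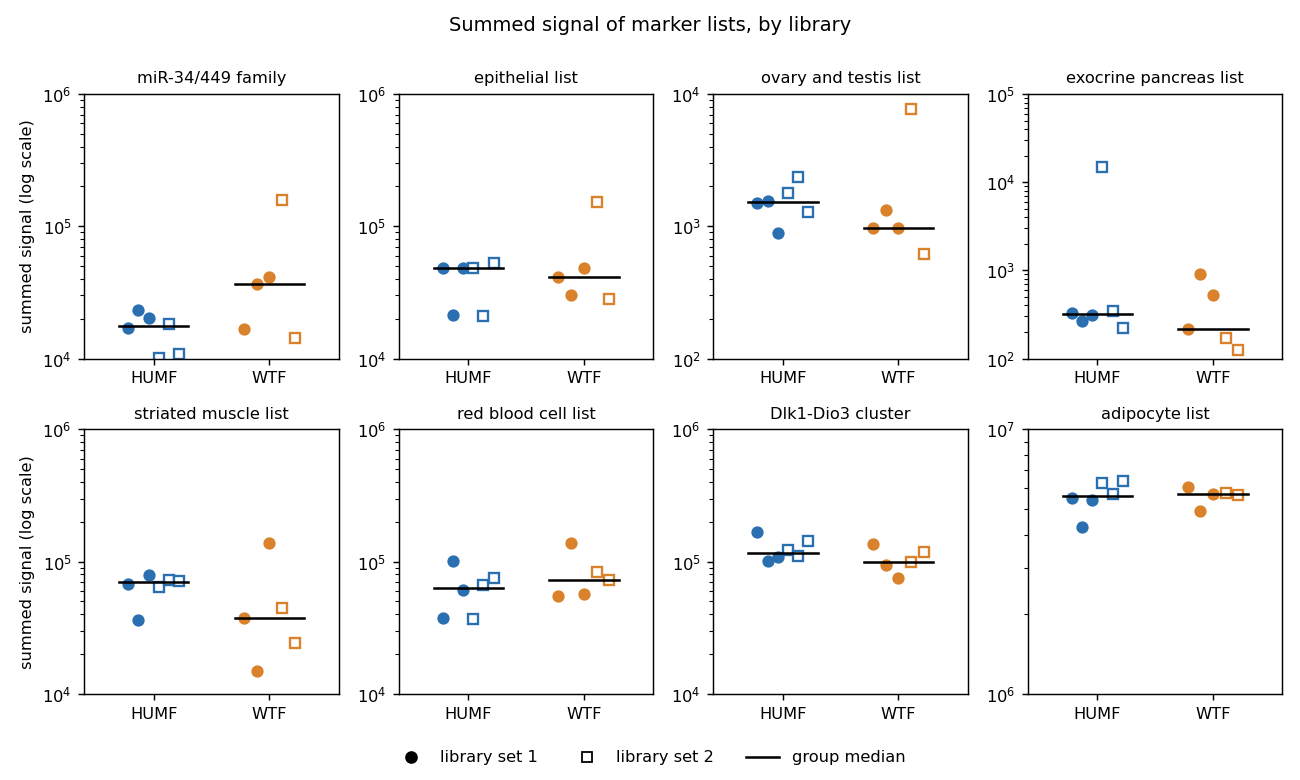
Summed signal of 8 miRNA lists in each library (log scale), with filled circles for library set 1, open squares for set 2 and a bar at the group median. WTF replicate 10 is the high square in the miR-34 and miR-449, epithelial and ovary and testis panels, HUMF replicate 9 is the high square in the pancreas panel, and the adipocyte sums of both groups lie between 4293340 and 6367890.

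Blood, liver and muscle markers were also uneven. The 5 red blood cell features were all lower in HUMF, with a median of -0.30 (-0.50 without HUMF replicate 7, -0.13 without WTF replicate 7) and no unadjusted p under 0.05. miR-486-5p had 21196, 39091 and 62055 in HUMF and 35974, 88809, 36274, 59251 and 37458 in WTF, with WTF replicate 7 above the rest, and miR-451 differed by -0.29. Liver miR-122-5p was highest in the same WTF replicate 7 (154500, against 33874 to 87472 in the other 10) and differed by -0.14. Within library set 1 it differed by -0.48 and within set 2 by 0.34. The hepatocyte list had 4 of 7 features higher and a median of 0.17, which was -0.31 in set 1 and 0.34 in set 2. Striated muscle features had 6 of 7 higher and a median of 0.73, which was 1.19 without WTF replicate 8 and 0.37 without WTF replicate 7. Muscle miR-1a-2-3p had 15089, 29462 and 35015 in HUMF and 16456, 6469, 61942, 19336 and 10038 in WTF, so that the WTF libraries lay on both sides of HUMF. miR-206-3p, specific to skeletal muscle, differed by 1.25 (interval 0.09 to 2.42, unadjusted p = 0.0368 by limma). Neural list features had 5 of 20 higher and a median of -0.17, but 11 higher and 0.02 without WTF replicate 8. Neuroendocrine miR-7a-1-5p differed by -0.09. The part of these tissues in any difference of the other lists was not tested.

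The genotype difference was then compared between the 2 library sets. No feature had a difference between sets at an adjusted p under 0.05 (0 of 1298, 0%), and 35 (2.7%) had an unadjusted p under 0.05, 18 (1.39%) in one direction and 17 (1.31%) in the other. The smallest adjusted p, 0.0523, belonged to miR-145-5p_+3. Leaving out 1 library gave calls in 3 cases: 1 feature without HUMF replicate 12, 4 without WTF replicate 6 and 7 without WTF replicate 11. The 7 included miR-34b-5p, miR-34b-3p and miR-34c-5p, and WTF replicate 10 is then the only WTF library of set 2.

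No feature had a female difference that was called apart from the male difference. The genotype by sex term of limma called 0 of 1298 (0%), with 63 features (4.85%) at an unadjusted p under 0.05, of which 33 (2.54%) were higher and 30 (2.31%) lower in females relative to males. voom also called 0, with 57. The smallest adjusted p was 0.313, for miR-34c-3p, which was listed at 0 in all 4 WTM libraries and in 1 of 5 HUMM libraries. Its HUMM values were 39.1, 0, 15.1, 42.3 and 18.5. The shifted form let-7d-3p_+1 was the only one of the 5 leading features listed in all 20 libraries. It averaged 125 ± 44.2 (SD, n = 6) in HUMF, 121 ± 30.1 (n = 5) in WTF, 142.6 ± 52.7 (n = 5) in HUMM and 260 ± 115 (n = 4) in WTM. The other 3, miR-195-3p_+1, miR-122-5p_+4 and miR-5117-3p_+1, were each listed at 0 in some libraries. For miR-34a-5p the female difference minus the male one was -1.16 (unadjusted p = 0.0275, adjusted p = 0.860 by limma). The miR-34 and miR-449 list, with a median of -1.13 in females, had 7 of 7 features higher and a median of 0.85 in HUMM minus WTM. Over all features, 708 of 1298 (54.5%) were higher in HUMM. The difference between females and males over the list was not tested.

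**Figure D5:**
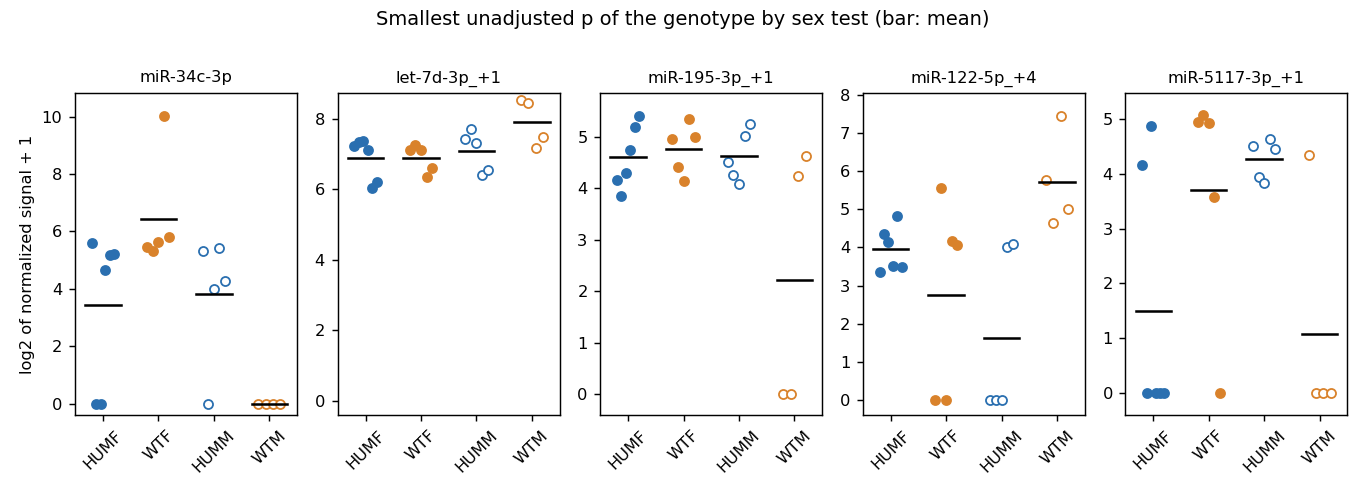
Log2 of normalized signal + 1 in each female (filled) and male (open) library for the 5 features with the smallest unadjusted p of the genotype by sex test, with a bar at the group mean. Points at 0 are libraries in which the feature was not listed, and let-7d-3p_+1 is the only panel without such points.

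The make-up of the libraries was compared next. Forms with a shifted start took 4.02% ± 0.312 of the signal in HUMF (SD, n = 6) and 3.85% ± 0.110 in WTF (n = 5), a difference of 0.166 percentage points (exact two-sided permutation test within library sets, p = 0.3; the smallest p this design allows is 0.005). The number of features listed above 0 was 1405 ± 55.7 (n = 6) in HUMF and 1377 ± 157 (n = 5) in WTF (exact permutation p = 0.605). WTF replicate 10, the deepest library, listed 1612, and the shallow WTF replicate 8 listed 1240.

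The mRNA libraries gave a separate readout of the transcripts that carry miRNAs. Of 51 host genes, 49 were tested, and limma called 0, with 3 at an unadjusted p under 0.05. Over all 17394 genes tested, 3 (0.0172%) were called, As3mt, Borcs7 and Gm6967, and 913 (5.25%) had an unadjusted p under 0.05, 539 (3.1%) higher and 374 (2.15%) lower in HUMF. Hosts were split evenly, with 24 higher and 25 lower in HUMF and a median of -0.00. The 3 were Ppargc1b, a coactivator of mitochondrial genes that hosts miR-378a (450, 517 and 415 in HUMF and 1328, 776 and 920 in WTF; difference -1.10, adjusted p = 0.907), Meg3 (above) and Slit2, host of miR-218 (1.36, adjusted p = 0.933). miR-378-3p, for comparison, differed by 0.08 (-0.56 to 0.73) in the small RNA libraries. Mir155hg, the precursor transcript of miR-155, was too low to be tested, at 5.34, 6.26 and 1.51 in HUMF and 13.8, 8.16 and 11.6 in WTF.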

How the data were processed

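The submitters' processing notes name the mm9 build, STAR, Salmon, DESeq2 and limma, with no versions or roles. The deposited small RNA and mRNA tables hold normalized signal: the authors divided reads by a size factor for each library. The authors' batch-corrected log2 (rlog) table, also deposited, served as an alternative. Differences were tested with limma 3.58.1 (R 4.3.3) on log2(signal + 1), for features with a mean of at least 10 over the 20 adipose libraries, with 4 groups and the library set in the fit and Benjamini-Hochberg adjustment; called means an adjusted p under 0.05. The fit was tested on simulated data. Single values had exact permutation tests within library sets. Tables and figures used Python 3.11.15, numpy 2.4.6, pandas 2.3.3 and scipy 1.17.1. The members were chosen by name, and both they and the lists were set with earlier results of these data known. Named features are the 8 smallest unadjusted p in each direction, the 8 most abundant, the 2 most abundant of each list, the 5 smallest p by sex, and hosts; miR-34b, miR-449a, miR-141, miR-200c, miR-216a, miR-206, miR-335, Slit2 and Gm6967 were named after their values were seen. In mRNA, libraries with the same replicate number deviated together (correlations 0.1927, 0.1696 and 0.1809 for replicates 4, 5 and 6), a hint from the data that the numbers pair them.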

Additional observations from a re-analysis of the deposited data

Results flagged for a closer look

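In 12 of 88 groups of values tested, 1 library lay far from the rest of its group by Dixon's criterion. Chance meets it in about 5% of independent groups of normally distributed values. The signals here were not logged and some groups share features, so the 12 cannot be set against that 5%. WTF replicate 10 was such a library for 5 values. Its summed miR-34 and miR-449 signal was 158352 (14319.7 to 41036.4 in the other WTF libraries), its epithelial sum 151786 (28374.8 to 48053.5) and its ovary and testis sum 7677.37 (622 to 1322). Of that last sum miR-204-5p made up 7589.6, and 23 of the 26 features in the list were at 0 in all female libraries. WTF replicate 10 also had miR-34c-3p at 1030.71 (39.1 to 54.9) and miR-155-5p at 20711.8 (5657 to 7705).

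HUMF replicate 9 had a pancreas sum of 14924.8 (222 to 342 in the other HUMF libraries). HUMF replicate 6 had the highest miR-136-5p, 1018.58 (472 to 626), and miR-376c-3p, 903.525 (420.3 to 597), both of the Dlk1-Dio3 cluster. HUMF replicate 7 had a low striated muscle sum, 35905.2 (64802 to 78636), and a high X-linked miR-322 to miR-450 sum, 21480.0 (11298 to 14030). HUMF replicate 12 had an Sfmbt2 cluster sum of 6142.89 (2551 to 3016). WTF replicate 8 had a striated muscle sum of 137622 (14911 to 44964).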

How the results depend on the processing

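Under the alternatives, 60 of 506 settings gave a list median the other sign (15 of 22 lists), and 102 of 1502 gave a named feature's difference the other sign (27 of 64 differences). The female comparison called 0 features under every setting run, with the lowest adjusted p between 0.160 and 1.00, and unadjusted counts between 11 (mean of at least 100) and 63 (without WTF replicate 6), with 54 without a filter and 12 with forms summed to mature miRNAs. Genotype by sex called 0 throughout, with 30 to 96 unadjusted. Genotype by library set called 0 to 7 when 1 library was left out: 1 without HUMF replicate 12, 4 without WTF replicate 6 and 7 without WTF replicate 11. The difference in features listed, 27.6, was -5.60 at a signal of at least 100 and ran from -6.67 (without WTF replicate 8) to 86.3 (without WTF replicate 10). miR-145-5p_+3 was -0.000312 in library set 2 only. The causes were not tested. Same-numbered small RNA libraries did not deviate together (-0.05195, 0.09857, -0.107 and -0.04531 for replicates 6, 7, 8 and 11), so the numbers were not used as pairs; with the replicate block 0 features were called, 18 unadjusted. The block changed no other call, host genes included. Voom on reads, scaling by total listed reads, median ratio rescaling and summed forms were added after seeing the data. The planned edgeR TMM rescaling, edgeR quasi-likelihood and DESeq2 tests were not run, because features under 10 reads are listed at 0. The median half-width of the 95% interval was 0.58 (log2) over all features, and 274 of the features tested were listed at 0, under 10 reads, in at least 1 female library.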

Other observations

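miR-335, from an intron of the imprinted gene Mest, was singled out after its values were seen, because the HUMF libraries fell far apart. miR-335-5p was at 2215, 1210.3 and 1414 in HUMF replicates 6, 9 and 12 and at 22585, 24854 and 17075 in HUMF replicates 7, 8 and 11. The 5 WTF libraries had 5638, 41054, 24526 and 11536 in replicates 6, 7, 8 and 10 and 7785 in replicate 11. The difference was -1.19 (95% interval -2.72 to 0.34, unadjusted p = 0.120 by limma). The opposite arm miR-335-3p followed the same split, from 705 to 8285 in HUMF. In the mRNA libraries Mest ranged from 1510 to 35868 over the 6 female libraries (difference -0.77).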
